A study of Mus musculus with 6 samples.

Results

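The replication-dependent histone genes are the families whose transcripts supply new histones while DNA is copied. Members were the rows whose platform annotation symbol begins with Hist1h, Hist2h, Hist3h or Hist4, or in the newer naming with H1, H2a, H2b, H3 or H4 followed by c and a number. They numbered 30 of the 23185 rows that carry 1 gene symbol: 9 H2A, 11 H2B, 7 H3 and 3 H4 genes. All of them carry the newer names, and linker histone H1 genes, now named H1f, fall outside the wording of the rule and are treated below with the histone variants. By RefSeq's gene table, 24 members lie in the large Hist1 cluster on chromosome 13 and 6 in the Hist2 cluster on chromosome 3. Another 29 entries of that table with names of this form, a pseudogene included, were not analysed here.

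Expression was measured on 1 Affymetrix array per sample, 3 from wild type FVB mice and 3 from FVB mice with a knockout of irisin, the hormone cut from the product of Fndc5. The knockout line was made by injecting zygotes with Cas9 mRNA and 5 guide RNAs; the labels name neither the deleted part of the gene nor how many founders the line came from. The controls were littermates, both groups ate chow with 10% fat for 24 weeks, and the age and sex of the sampled mice are not stated. The labels give the source as cardiomyocytes in some fields and as myocardium in another, and do not say outright that each array is a separate animal, so the p-values may measure technical spread only. Values are RMA summaries on a log2 scale with no detection calls; differences are knockout minus wild type in log2 units, and a gene was called when its limma p, adjusted by Benjamini and Hochberg's method across the 23185 genes, was under 0.05. Cardiomyocyte markers were bright, with array means over the 10 markers of 10.69 to 10.82. Fndc5 lay at 7.83 to 8.42 in wild type and at 5.45 to 7.68 in the knockout, where replicate 1 was the highest.

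Histones H2A, H2B, H3 and H4 form the protein core around which DNA is wound, and most genes for their canonical forms are transcribed in S phase, when a dividing cell copies its genome. Their mRNAs usually end in a conserved stem-loop in place of a poly(A) tail; the stem-loop binding protein and the U7 small nuclear ribonucleoprotein direct its formation, and the mRNAs are degraded when replication stops. Adult heart muscle cells rarely divide, and some histone genes are also made as polyadenylated mRNA in cells that do not divide. The WT Plus labelling named in the labels primes at random positions and does not require a poly(A) tail.

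Many H2A and H2B genes stand head to head and share the stretch between them as a promoter. Most of the measured H2A and H2B members belong to such a pair, and most of these were not called. Among them are the pairs of the member called higher and of the member called lower. The stretches are shown for those pairs, as the 250 bases before the start of the H2A gene, and for H4c12, the H4 gene with the lowest p. Sequences are from RefSeq's promoter table on GRCm38.p6, each read 5′ to 3′ on the strand of the named gene. Capitals mark the box CCAAT, the TATA box spelled TATAAA, and the octamer ATTTGCAT, a site of POU-domain factors first described in H2B and immunoglobulin promoters, on either strand.
H2ac20 (partner H2bc21), chr3:96220881-96221130, minus strand: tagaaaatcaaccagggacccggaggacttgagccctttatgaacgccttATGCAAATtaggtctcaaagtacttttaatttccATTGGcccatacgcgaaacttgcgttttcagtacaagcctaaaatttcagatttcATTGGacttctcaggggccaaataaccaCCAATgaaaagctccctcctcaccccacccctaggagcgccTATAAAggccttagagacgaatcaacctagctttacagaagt
H2ac6 (partner H2bc4), chr13:23683960-23684209, minus strand: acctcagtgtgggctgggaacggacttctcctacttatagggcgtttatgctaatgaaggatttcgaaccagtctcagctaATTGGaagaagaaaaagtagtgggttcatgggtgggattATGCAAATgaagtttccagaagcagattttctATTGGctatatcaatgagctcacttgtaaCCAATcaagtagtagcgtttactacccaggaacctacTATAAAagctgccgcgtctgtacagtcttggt
H4c12, chr13:21750554-21750803, minus strand: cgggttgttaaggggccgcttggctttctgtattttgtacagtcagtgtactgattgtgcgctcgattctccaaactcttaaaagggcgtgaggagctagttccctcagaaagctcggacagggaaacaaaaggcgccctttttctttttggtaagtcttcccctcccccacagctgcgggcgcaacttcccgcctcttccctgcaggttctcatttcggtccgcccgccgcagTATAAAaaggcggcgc

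Both H2A windows held CCAAT 3 times, TATAAA once and the octamer once. In the H2ac20 window the octamer lay 200 bases before the H2ac20 start, and in the H2ac6 window 130 bases before the start. RefSeq's models of H2bc21 and H2bc4 begin inside these windows. The H4c12 window held TATAAA alone, 16 bases before the start. A window was matched for 26 of the 30 members. CCAAT was found in 21 of these (80.8%) against 34.5% of the 27025 windows of all genes, TATAAA in 17 (65.4%) against 13%, and the octamer in 9 (34.6%) against 1.61%. All 9 H2A and all 9 H2B windows held CCAAT, as did 3 of 5 H3 windows and 0 of 3 H4 windows. The octamer was found in 5 H2A and 4 H2B windows. No motif contains another, and a match describes these windows only. The windows of some head-to-head partners overlap, and both strands were searched. The same bases can therefore count for both partners, and these windows are not independent.

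As a group the histone genes did not move in 1 direction. The median difference over the 30 members was -0.007, beside -0.045 over all genes, with 15 members below 0 and 15 above it. H2bc21 was called higher, H2ac6 was called lower and 28 members did not pass. Among all genes 10.4% were called higher and 6.18% lower, so 1 member of 30 in each direction is no more than the background. Values of the groups did not overlap for 4 members that were below wild type (background 17%) and 1 that was above it (background 17.2%). An unadjusted p under 0.05 was reached by 7 members (23.3%), against 29.3% of all genes. The mean over the 30 members was 2.44, 2.50 and 2.30 in wild type replicates 1, 2 and 3, and 2.48, 2.43 and 2.43 in the knockout. These array means overlapped, and the lowest came from wild type replicate 3.

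**Figure D1:**
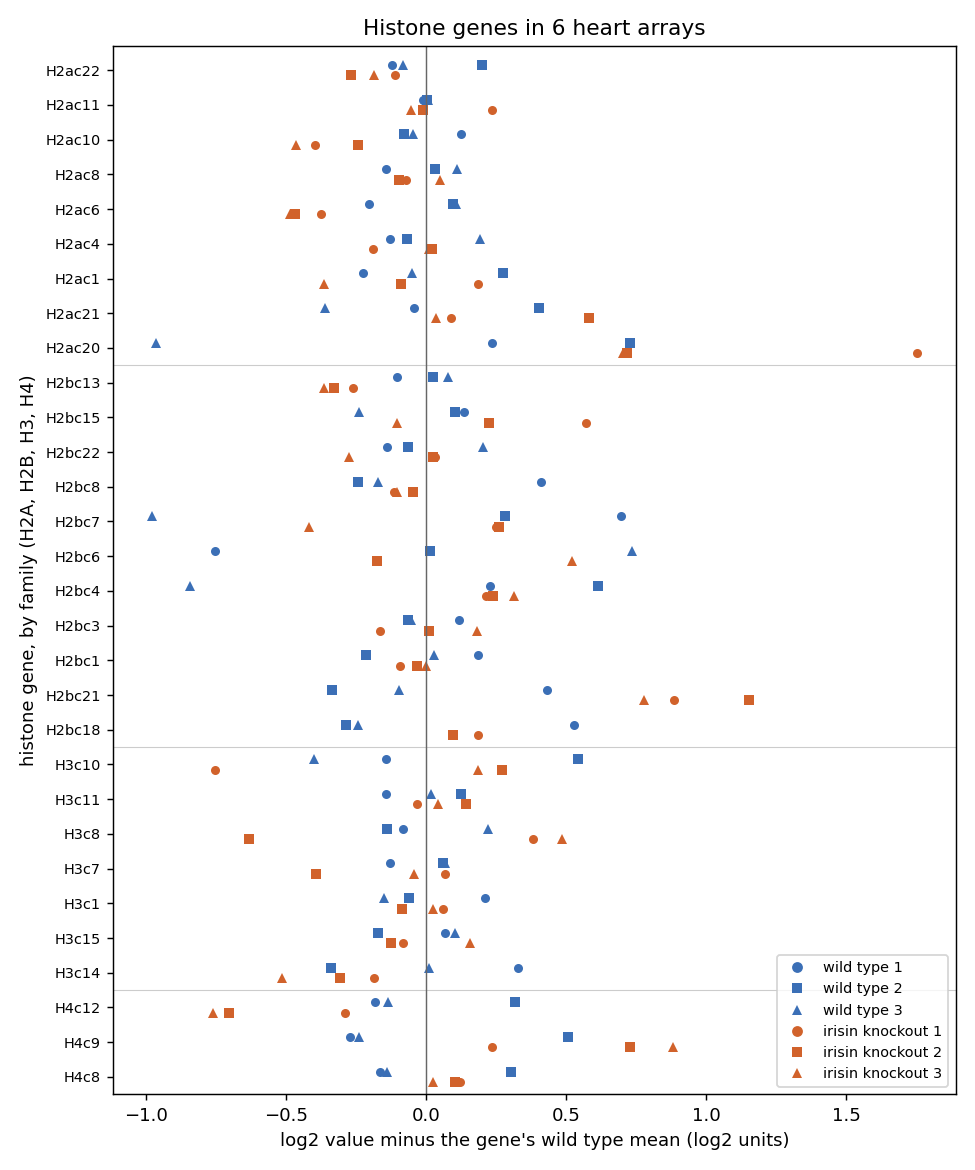
Each point is 1 array, placed by its log2 value minus the mean of the 3 wild type arrays for that gene (horizontal axis, log2 units), for the 30 histone genes grouped as H2A, H2B, H3 and H4. Wild type is blue and knockout orange, and the marker shape gives the replicate number; for 25 of the 30 genes the groups overlap.

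The 95% interval of the difference lay within 1 log2 unit of 0 for 26 members (86.7%, against 84.2% of all genes) and within 0.5 for 13 (43.3% against 41.8%), shares close to those of all genes. It reached beyond 1 for H2ac20, H2bc21, H4c9 and H4c12. Absolute differences under 0.1 were seen for 16 of 30 members (53.3%), against 28.5% of all genes. Whether level bears on this was not tested. A mean under the median of all genes was found for 18 members (60%, against 49.9% of all genes). In the dimmest 3 of 10 equal parts by level lay 14 members. There 0.302% to 1.51% of genes were called lower and 0.0862% to 0.345% higher. At those levels a small difference cannot be told apart from a signal near background. In the brightest part, with 2 members, 34.5% of genes were called higher and 11.1% lower, and the median difference of all genes was 0.266. In the part next to it, with 3 members, the shares were 25.5% and 10.9% and the median 0.136. No member in either part was called.

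Among H2A genes, which encode a core subunit that pairs with H2B, 1 of 9 was called lower and 0 higher (limma; 3 at an unadjusted p under 0.05). The values of H2ac6, formerly Hist1h2ac, were 1.25, 1.55 and 1.56 on the wild type arrays 1 to 3 and 1.08, 0.99 and 0.97 on the knockout arrays. The groups did not overlap, with the knockout lower, and both were dim. The difference was -0.44 (SE 0.13, 95% interval -0.74 to -0.15, adjusted p = 0.0489 in limma). The call held without wild type replicate 1 (adjusted p = 0.0207) and was lost without any other single array (0.103 to 0.145). It was also lost after quantile normalization (0.0867) and after centring each array on its median (0.107).

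H2ac10 and H2ac20 are described because of how their values fell, a choice made after the values were seen. H2ac10 read 5.43, 5.22 and 5.25 in wild type and 4.91, 5.06 and 4.84 in the knockout. Its groups did not overlap, but the difference of -0.37 (SE 0.12) had an adjusted p of 0.0779 in limma. It passed after quantile normalization (0.0229) and not after centring (0.205). H2ac20, formerly Hist2h2ac, had the largest difference of the 30 members and the least even values. It read 3.69, 4.19 and 2.50 in wild type and 5.21, 4.18 and 4.16 in the knockout. Wild type replicate 3 was low and knockout replicate 1 high, and wild type replicate 2 lay level with the other knockout arrays. The difference of 1.06 had an interval of 0.07 to 2.05 (SE 0.43, adjusted p = 0.145 in limma). Without wild type replicate 3 it was 0.58 (adjusted p = 0.334), and without wild type replicate 2 it was 1.42 (0.0563). H2ac1, the testis H2A gene that is active in male germ cells, differed by -0.09 (SE 0.18), and the remaining H2A genes H2ac4, H2ac8, H2ac11, H2ac21 and H2ac22 had adjusted p-values of 0.395 or more.

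Among H2B genes, 1 of 11 was called higher and 0 lower (limma; 2 at an unadjusted p under 0.05), with a median difference of 0.03. H2bc21, formerly Hist2h2be, is a non-allelic H2B gene best known from olfactory sensory neurons, where it is expressed without cell division. Its values were 2.13, 1.37 and 1.61 on the wild type arrays 1 to 3 and 2.59, 2.86 and 2.48 on the knockout arrays. Each knockout array was above each wild type array. The difference was 0.94 (SE 0.20, 95% interval 0.48 to 1.40, adjusted p = 0.0153 in limma). The wild type values lay below the array medians of 2.23 to 2.36, so H2bc21 was dim in wild type, and without detection calls no fold is given. After quantile normalization it was 1.03 and after centring 1.04, both still called. The call was narrowly lost without wild type replicate 3 (adjusted p = 0.0507) and without knockout replicate 1 (0.0514) or 2 (0.07), with differences of 0.89, 0.97 and 0.83. RefSeq's gene model of H2bc21 is 2667 bases long, against 468 for its neighbour H2ac20, so it extends well past a histone coding region. A long model is not particular to H2bc21: those of H2bc6 (37455 bases), H2bc22 (14079) and H2bc4 (8282) are longer, and none was called. RefSeq lists 3 transcripts for H2bc6, 3 for H2bc22 and 2 for H2bc4, against 1 for H2bc21, so these lengths may not be comparable.

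Every knockout array of H2bc13 was below every wild type array without the gene passing the test; it is named after its values were seen. It read 6.84, 6.98 and 7.03 in wild type and 6.69, 6.62 and 6.58 in the knockout. The difference was -0.32 (SE 0.11, adjusted p = 0.0974 in limma), and -0.54 after quantile normalization, where it was called (0.0195), but -0.22 after centring (0.254). Also named for their values are H2bc4, H2bc7 and H2bc6. H2bc4, formerly Hist1h2bc, read 7.33, 7.71 and 6.25 in wild type and 7.31, 7.34 and 7.41 in the knockout. Its knockout arrays lay close together, while wild type replicate 3 fell far below the other wild type arrays, and the difference was 0.26 (SE 0.32, adjusted p = 0.662 in limma). Wild type replicate 3 was also the low array for H2bc7, at 1.86 against 3.54 and 3.12 in replicates 1 and 2. H2bc6 showed another order, where wild type replicate 1 was lowest (2.24), replicate 2 between (3.01) and replicate 3 highest (3.73). H2bc1, the testis H2B gene, differed by -0.04 (SE 0.13). The other H2B genes H2bc3, H2bc8, H2bc15, H2bc18 and H2bc22 differed by -0.09 to 0.23 and did not pass. H2bc6 and H2bc18 each had equal values at 4 decimals on a pair of knockout arrays, as 2.89% of all genes had on some pair.

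None of the 7 H3 genes, which encode the core histone with the most studied modified tail, passed the test in limma, and 0 had an unadjusted p under 0.05. Their median difference was -0.015 and the range -0.34 to 0.08. All H3 genes but H3c10 were dim, with mean levels from 0.69 (H3c11) to 1.32 (H3c14). At those levels neither a small difference nor a spread between arrays can be told apart from signal near background. H3c14, from the Hist2 cluster, read 1.82, 1.15 and 1.50 in wild type and 1.31, 1.18 and 0.98 in the knockout. The groups overlapped and the difference of -0.34 (SE 0.18) had an adjusted p of 0.269 in limma. H3c7 differed by -0.12 (SE 0.15). H3c8 and H3c10, named after their values were seen, were uneven. Among H3 genes H3c8 varied most between knockout arrays, at 1.27, 0.26 and 1.37, while its wild type arrays read 0.80, 0.75 and 1.11. H3c10 read 2.46, 3.15 and 2.21 in wild type and 1.85, 2.88 and 2.79 in the knockout, with wild type replicate 2 high and knockout replicate 1 low. H3c1, H3c11 and H3c15 differed by -0.02 to 0.05.

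The 3 H4 genes, which encode the partner of H3 in the core, included 1 lower and 1 higher value of similar size, and 0 passed the test in limma (2 at an unadjusted p under 0.05). H4c12 read 5.30, 5.80 and 5.34 in wild type and 5.19, 4.78 and 4.72 in the knockout. Its groups did not overlap, and the difference was -0.58 (SE 0.18, adjusted p = 0.0642 in limma). It was called after quantile normalization (-0.72, adjusted p = 0.0372) and without the dimmest 50% of genes (0.0427), but not after centring (-0.48, 0.115). H4c9 read 1.17, 1.95 and 1.21 in wild type and 1.68, 2.17 and 2.32 in the knockout. Wild type replicate 2 lay among the knockout arrays, and the difference was 0.62 (SE 0.24, adjusted p = 0.133 in limma). Without that array H4c9 differed by 0.87 and was called (0.0239). H4c8 differed by 0.08 (SE 0.15). H4 genes are known to encode the same protein, and core histone genes of a family are close in sequence, so a probe set may take up RNA of more than 1 member; RefSeq lists the H4 genes under each other's names, and likewise H2bc13 with H2bc7 and H2bc15.

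**Figure D2:**
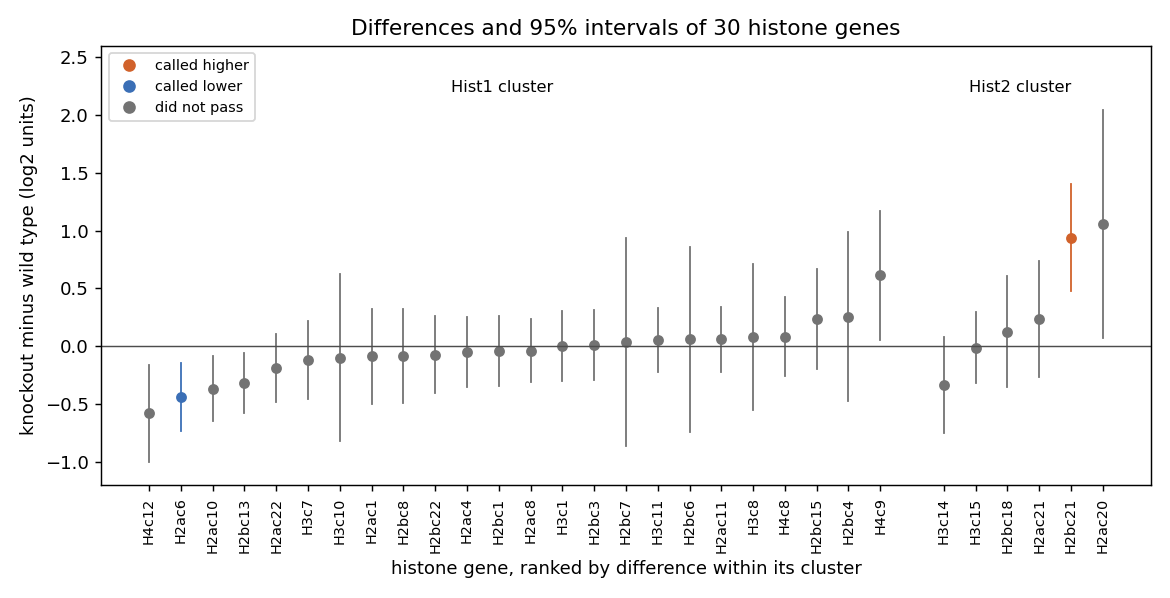
Points give the difference between knockout and wild type (vertical axis, log2 units) and bars its 95% interval from limma for the 30 histone genes, ranked within the Hist1 cluster (24 genes) and the Hist2 cluster (6 genes). H2bc21 (orange, 0.94) and H2ac6 (blue, -0.44) were called, and the intervals of most other genes span 0.

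By position, the 24 genes of the Hist1 cluster had a median difference of -0.039, with 1 called lower and 0 higher (5 at an unadjusted p under 0.05). The 6 genes of the Hist2 cluster had a median of 0.181, with 1 called higher and 0 lower (2 at an unadjusted p under 0.05). H2ac20 and H2bc21 carry the upper end of the Hist2 cluster; H2ac21 differed by 0.24, H2bc18 by 0.13, H3c15 by -0.02 and H3c14 by -0.34. The difference between the clusters was not tested.

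Both members were measured in 5 of the 13 head-to-head H2A and H2B pairs that RefSeq's tables show. In the pair H2ac20 and H2bc21 the differences were 1.06 and 0.94, although H2ac20 alone did not pass. Within wild type the partners did not follow each other: replicate 2 was the highest array for H2ac20 and the lowest for H2bc21. In the pair H2ac6 and H2bc4 the differences were -0.44 and 0.26, opposite in sign, with H2bc4 resting on wild type replicate 3 (-0.17 without it). The other 3 pairs stayed close to 0 on both sides. They were -0.09 and -0.04 for H2ac1 and H2bc1, -0.19 and -0.07 for H2ac22 and H2bc22, and -0.04 and -0.09 for H2ac8 and H2bc8. Each of these 3 pairs had a very dim partner, with a mean level of 0.66 for H2bc1, 0.90 for H2bc22 and 0.72 for H2ac8. A small difference there cannot be told apart from signal near background, so these pairs do not show whether partners moved together.

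**Figure D3:**
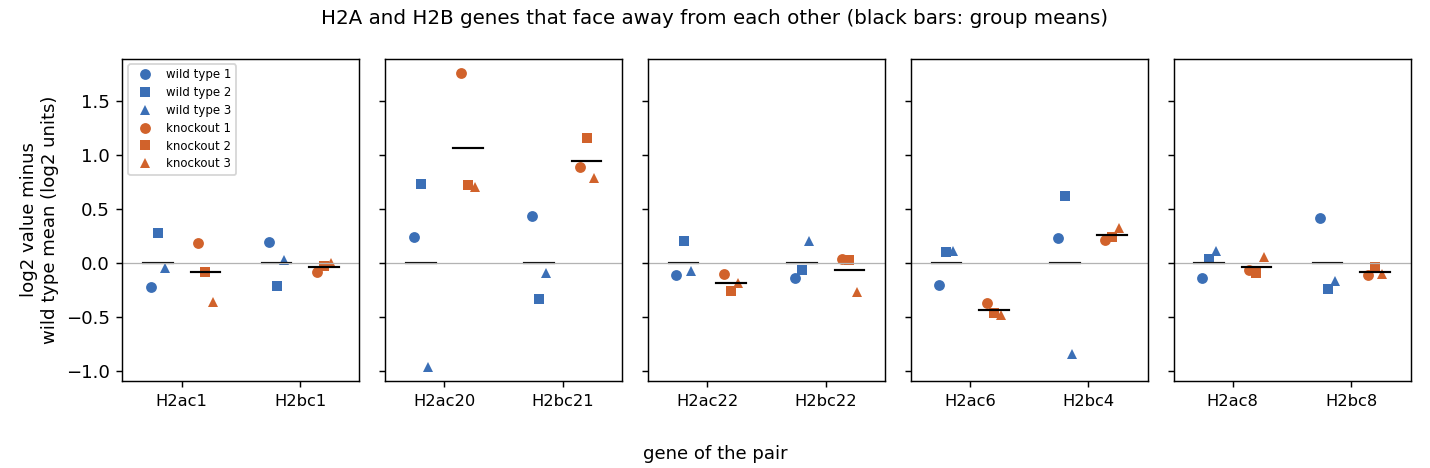
Panels show the 5 head-to-head pairs of an H2A and an H2B gene, with each array as a point at its log2 value minus the gene's wild type mean (vertical axis, log2 units) and group means as black bars. H2ac20 and H2bc21 are the pair with both knockout means near 1, and the wild type arrays of H2ac20 are spread widely.

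Histone genes outside the rule include the linker histones and the replication-independent variants, and 21 of them had a row. Of these 2 were called lower and 1 higher, with a median of -0.117. Counts in this and the following lists stand against 6.18% of all genes called lower and 10.4% called higher. H3f3b, which encodes the replacement histone H3.3, read 7.29, 7.12 and 7.27 in wild type and 6.47, 6.33 and 6.64 in the knockout. The groups were well apart, and the difference was -0.75 (SE 0.13, adjusted p = 0.0058 in limma). H3f3a, which encodes the same protein, differed by -0.53 (SE 0.34) with wild type replicate 2 at 2.77 and the other wild type arrays at 1.44 and 1.48, and did not pass. H2ax, the variant phosphorylated at DNA breaks, was higher by 0.68 (SE 0.19, adjusted p = 0.0423), and the testis gene H2al2a was lower by 0.57 (SE 0.12, adjusted p = 0.0144). The call of H2ax was lost after quantile normalization (0.09) and without any single array but wild type replicate 1 (0.0665 to 0.146), and that of H2al2a without knockout replicate 2 (0.0674) or 3 (0.0556). The linker genes H1f1, H1f2, H1f3 and H1f4, which are made in S phase like the core genes, differed by -0.15, 0.16, -0.18 and -0.12 and did not pass.

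Genes that make and handle histone mRNA went both ways. Of 27 genes of histone gene transcription and 3′ end processing, 4 were called higher and 3 lower, with a median of -0.213. Srrt, the cap-binding cofactor also called ARS2, fell by 1.23 on the log2 scale (SE 0.12, adjusted p = 0.000628 in limma). Lsm10, a protein of the U7 particle, rose by 1.16 (SE 0.13, adjusted p = 0.000979), and Cpsf3, the endonuclease that cuts the pre-mRNA, rose by 0.71 (SE 0.14). Casp8ap2, a factor of histone gene transcription, was lower by 0.62 (SE 0.15, adjusted p = 0.0215), a call that leaving out any 1 of wild type arrays 2 and 3 and knockout arrays 1 and 2 ended (0.0552 to 0.0881). In the decay list 1 of 16 rose and 1 fell, with a median of -0.093. Eri1, the exonuclease that trims the stem-loop end, rose by 0.85 (SE 0.14), and Smg1, a kinase of the decay factor Upf1, fell by 1.21 (SE 0.21). Of 25 histone chaperones and assembly factors 3 rose and 3 fell (median -0.054): Asf1a, a carrier of H3 and H4, by 0.73 and the acetyltransferase Hat1 by 0.74 upward, Daxx by 0.56 upward, and Cabin1, a partner of the H3.3 chaperone complex, by 0.77 downward. Chaperone calls ran from 0 lower without knockout replicate 1, where Cabin1 had an adjusted p of 0.0525, to 5 lower after quantile normalization. The call of Daxx ended when wild type array 2 (0.0581), knockout array 1 (0.0879) or knockout array 2 (0.0943) was left out.

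Genes of dividing cells had calls in both directions, in shares below those of all genes, and most were dim. In the dimmer 5 of the 10 parts by level, where 0.302% to 4.44% of genes were called lower and 0.0862% to 2.03% higher, lay 19 of 33 S phase genes and 18 of 25 mitosis genes. Of the 33 S phase and DNA replication genes 1 rose and 1 fell, with a median of -0.011: Rfc4, a clamp loader subunit, by 1.34 (SE 0.19) upward and Tyms, thymidylate synthase, by 0.90 (SE 0.17) downward. Of 25 mitosis genes 1 rose and 1 fell, with a median of -0.145. Aurkb, a mitotic kinase, was higher by 0.52 (SE 0.12) and Plk1, another, lower by 0.44 (SE 0.12). Both were dim, at 1.71 to 2.65 on the 6 arrays. Aurkb had an adjusted p of 0.023 and Plk1 0.0353 in limma; the call of Plk1 was lost after quantile normalization (0.0977), after centring (0.0849) and without any single array but wild type replicate 1 (0.0731 to 0.12), and that of Aurkb without any single array but wild type replicate 2 (0.0522 to 0.0941).

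Structural RNAs that also lack a poly(A) tail gave a different picture. Of 12 such RNAs 7 fell and 0 rose (limma; 8 at an unadjusted p under 0.05), with a median of -1.063. This list was drawn up with the low values of some of its members already known, so its count is not independent evidence. Rpph1, the RNA of RNase P, fell by 3.03 (SE 0.15), the minor spliceosomal RNA Rnu11 by 2.54 (SE 0.22), Rnu3a by 1.91 (SE 0.19) and Rprl2 by 1.36 (SE 0.17). Among the rest, named for their known roles after the values were seen, Rn7sk, an abundant regulator of transcription elongation, differed by -0.26 (SE 0.28) and did not pass, nor did Rnu7, the RNA of the histone processing particle, whose values were 0.76 to 1.36. Whether the histone genes and these RNAs differed from each other was not tested.

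**Figure D4:**
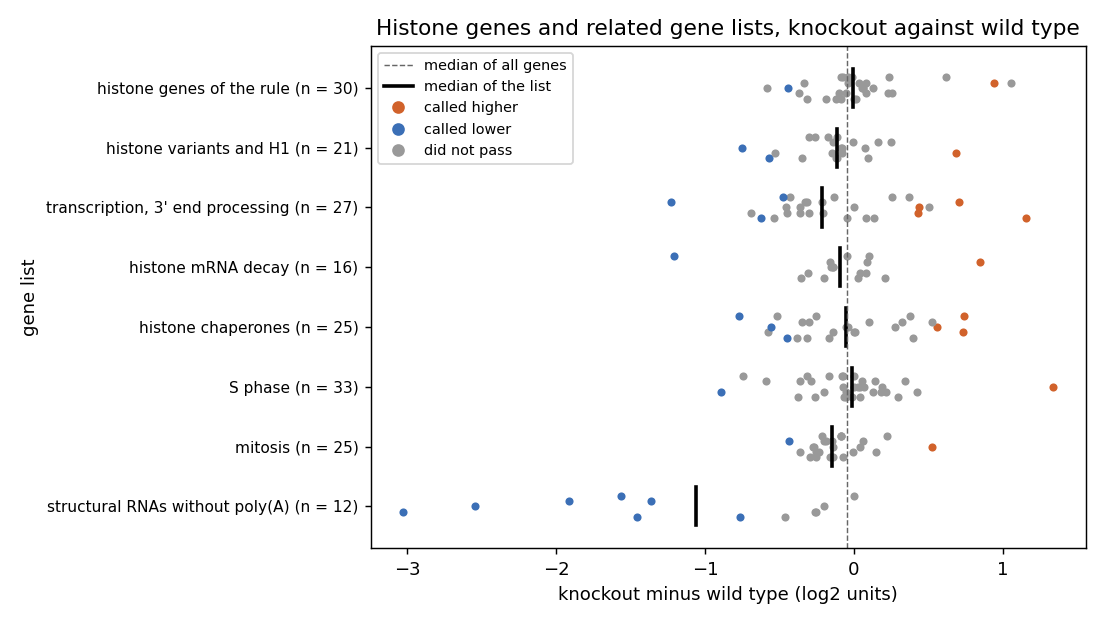
Points give the difference between knockout and wild type of each gene (horizontal axis, log2 units) in the histone set and in 7 related lists, colored by call; black bars mark list medians and the dashed line the median of all genes (-0.045). The histone set sits around -0.007 with 1 call on each side, and the structural RNAs around -1.063.

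Marker lists of other cell types differed in how they moved with genotype: many fibroblast and endothelial markers were called lower, smooth muscle and pericyte markers were called in both directions, and few or none of the others were called. In such bulk samples fewer cells of a type cannot be told apart from less RNA per cell. Array means over 10 fibroblast markers were 7.23 to 8.05 in wild type and 6.47 to 6.65 in the knockout, with 7 called lower, Col3a1 with the lowest p; Dcn (-0.01), Tcf21 (0.10) and Lum (-0.33) did not pass. Those over 10 endothelial markers were 7.73 to 7.83 and 7.04 to 7.32, with 5 called lower, Vwf first. Over 10 smooth muscle and pericyte markers they were 6.61 to 7.74 and 6.01 to 6.19, with 5 lower and 3 higher, so the mean joins opposite movements. The contractile genes Myl9 (-2.74), Acta2 (-2.16), Tagln (-2.83), Myh11 (-2.35) and Cnn1 (-3.04) were lower, and Rgs5 (1.23), Kcnj8 (1.49) and Abcc9 (1.01), known from pericytes, were higher. The mean of 7.74 was that of wild type replicate 3, the low wild type array for H2ac20, H2bc4 and H2bc7. Over the 30 histone genes that array was the lowest wild type array for 7 (23.3%, against 32.9% of all genes). It was the highest for 10, against 33.6% of all genes. Replicate 1 was the lowest for 14 (46.7%, against 35.1% of all genes). Markers beyond the first of each list were named after their values were seen. Of 9 macrophage markers Mrc1 was called lower and 0 higher (means 4.59 to 4.69 and 4.37 to 4.43), and of 9 lymphocyte markers Cd4 was called higher and 0 lower (1.82 to 2.07 and 1.91 to 2.10). None of 10 neutrophil markers (1.46 to 1.57 and 1.40 to 1.52) or 5 erythroid markers (2.11 to 3.36 and 1.95 to 2.33) was called in limma, with 0 and 1 at an unadjusted p under 0.05, the lowest p being that of Elane and Hbb-bs. Of 10 cardiomyocyte markers 2 were called higher, Actn2 first, and 0 lower. Their differences were below 0 for 7 and above 0 for 3, with a median of -0.14. All lay in the brightest of the 10 parts by level, where 34.5% of genes were called higher and 11.1% lower. Mean levels were at or below 1 for 2 neutrophil markers and for 0 markers of the other lists. The part of these cell types in the histone values was not tested.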

How the data were processed

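Total RNA was extracted with TRIzol and labelled with biotin, per the labels' protocols. The submitters' processing notes name RMA, affy 1.61.0 and R 3.6.0, and the deposited log2 values were taken as RMA summaries. Neither the probe set definition nor the genome build is named in the labels. The table holds 25206 rows, and the 2021 that do not carry exactly 1 gene symbol were left out. Groups came from sample titles. Each gene was tested with limma 3.58.1 (lmFit, eBayes, two-sided, genotype as the only term) in R 4.3.3, p-values adjusted by Benjamini-Hochberg across 23185 genes, and no filter. The smallest exact two-sided permutation p for 3 arrays against 3 is 0.1, so none was run. Precision is limited by the number of arrays. The procedure was tested on simulated data with the genes' own means and spreads. Of seeded changes, 2 of 67 were recovered at 0.5 log2 units, 28 of 67 at 1 and 64 of 66 at 2. Of the unchanged genes 2 were called. Far fewer genes were changed there than were called in the data, so these shares do not carry over directly.

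Members and lists were chosen with earlier results of these data known. Named are members past the threshold, the 2 lowest p of families without one, textbook subtypes, up to 4 called genes of each companion list by p (or the 2 lowest) and 1 of each marker list, and Fndc5; other names were chosen after their values were seen. RefSeq tables (GRCm38.p6) gave older names, cluster, gene length and promoters. Figures were drawn with matplotlib 3.10.9. Alternatives covered scaling, filters, rows, variance models, array weights, a replicate block, arrays left out and thresholds.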

Additional observations from a re-analysis of the deposited data

How the results depend on the processing

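Over 18 alternatives no called value changed sign. Members called lower, 1 on the deposited values, numbered 3 after quantile normalization (H2ac10, H2bc13 and H4c12), 0 after centring each array on its median, 0 without the dimmest 30% of genes, which takes out H2ac6, 0 at a threshold of 0.01 and 4 at 0.10. Without the dimmest 50% of genes 1 member was called lower, H4c12 (adjusted p = 0.0427 in limma). Members called higher, 1 on the deposited values, numbered 0 without the dimmest 50% of genes, which takes out H2bc21, and 0 at a threshold of 0.01. Leaving out 1 array gave 0 to 1 called lower, 0 to 2 called higher and a histone median difference of -0.068 to 0.010. After centring the histone median difference was 0.093 in place of -0.007, while the median difference of all genes was 0.055 in place of -0.045. With the replicate number as a block 0 members were called lower and 1 higher (H2ac6 adjusted p = 0.0878, H2bc21 0.0235, limma). Whether the numbers pair the samples is not settled. Deviations of same-numbered arrays correlated at 0.09, 0.048 and 0.07, for each knockout array the highest value with any wild type array. Wild type replicate 2, however, correlated best with knockout replicate 3 (0.055). All these correlations are small. Of the 28 members not called, 4 were called in at least 1 alternative and 19 changed sign in at least 1. Calls in the processing list ran from 1 to 8 lower and 1 to 6 higher, in the chaperone list from 0 to 5 lower and 1 to 5 higher, in the S phase list from 1 to 4 lower and 1 to 2 higher, and among structural RNAs from 6 to 8 lower. Dim members, and 3 arrays a group, limit what these data can show.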
